A study of Rattus norvegicus with 9 samples.

Results

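The core myelin and oligodendrocyte genes described here are Mbp, Mog, Mag, Mobp, Cnp, Mal, Cldn11, Ugt8 and Sox10. They were chosen by name, and every probe set whose platform annotation gives one of these symbols alone was taken. This gave 16 probe sets of the 31042 tested, for 9 of the 14217 genes named. The series holds 9 arrays of hypothalamus, 1 per male rat aged 13 weeks. The noodle diet, eaten by 4 rats, held 30% instant noodle by weight and drew 26% of its energy from fat. The control diet of the other 5 rats was that diet made without seasonings. Feeding was paired, near 60 g of diet per kg of body weight daily, and lasted 30 days by the treatment text or 4 weeks by the growth text. Strain and the hour of dissection are not given in the labels used here.

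Oligodendrocytes are the glial cells that wrap axons of the brain and spinal cord in myelin, a stack of membrane sheets that speeds conduction. The compact sheets are held together by abundant structural proteins and by glycolipids, and the transcription factor Sox10 is needed for the genes of this programme. In a piece of hypothalamus such transcripts come from oligodendrocytes of the grey matter and from the fibre tracts that run through and beside it. In bulk tissue, fewer oligodendrocytes and less of these RNAs per cell cannot be told apart.

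Values are the log2 probe set values that the authors deposited. Of all probe sets, 1223 (3.94%) ranged over more than 0.05 log2 units across the 9 rats and are called variable, and 29759 (95.9%) ranged over less than 0.01 and are called compressed. Of the 16 member probe sets 15 were variable, and each of the 9 genes had at least 1. The exception was the Ugt8 probe set 1368857_at, which ran only from 5.3501 to 5.3509, so no change of the transcript could be read from it. Levels of different probe sets depend on their probes and were not ranked against each other. Array medians lay between 6.777 and 6.785. Genes of hypothalamic neurons were read to check the tissue label. Pmch, Avp, Cartpt and Oxt, which encode neuropeptides made there, averaged 12.16, 11.35, 10.77 and 9.92 log2 over the 9 rats. These were the genes of highest mean among the 9 variable genes of a list of 12, whose Pomc, Sim1 and Nkx2-1 were compressed. The deposited values hold no detection calls and no other tissue, so these levels do not settle the label.

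The 9 genes rose and fell together from rat to rat, in the same animals on both diets. They were high in noodle-diet rat 1 and in control rats 5 and 8, and on average lowest in control rats 2 and 14. The spread between rats was wide beside the difference between diets. Over the 15 variable member probe sets the range ran from 0.221 log2 units (Mbp, 1383479_at) to 1.09 (Mobp, 1368263_a_at, a 2.12-fold span), with a median of 0.660.

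The structural proteins of compact myelin are described first. Mbp encodes myelin basic protein, which binds the inner faces of the membrane together. Its brightest probe set (1368810_a_at) measured 13.21, 13.10, 13.01 and 13.07 in noodle-diet rats 1, 4, 7 and 13, against 12.93, 13.15, 13.39, 13.05 and 12.98 in control rats 2, 5, 8, 11 and 14. The rats are in this order in every sentence below that lists them. Control rat 8 was the highest and control rat 2 the lowest, with the noodle-diet rats inside that span. A second Mbp probe set, 1387341_a_at, followed the same order at its ends, with 11.83, 11.51, 11.48 and 11.58 in noodle-diet rats against 11.27, 11.71, 12.00, 11.47 and 11.42 in control rats. The third, 1383479_at, moved less, with 9.25, 9.26, 9.19 and 9.22 in noodle-diet rats against 9.20, 9.36, 9.33, 9.28 and 9.14 in control rats. There control rat 5 stood highest, and it was the only variable member probe set that was not highest in control rat 8.

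Mobp encodes myelin-associated oligodendrocyte basic protein, another small basic protein of the compact sheets. It measured 11.92, 11.77, 11.77 and 11.70 in noodle-diet rats, against 11.59, 11.90, 12.27, 11.63 and 11.53 in control rats (1370434_a_at). Noodle-diet rat 1 and control rats 5 and 8 stood above the other 6 rats. Of its other probe sets, 1370500_a_at measured 11.11, 10.75, 10.74 and 10.75 in noodle-diet rats, against 10.59, 10.95, 11.23, 10.67 and 10.50 in control rats. In that probe set noodle-diet rat 1 lay far above the other rats of its diet. The widest, 1368263_a_at, measured 9.90, 9.43, 9.29 and 9.44 in noodle-diet rats, against 9.34, 9.71, 10.16, 9.33 and 9.07 in control rats.

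Mal encodes a small 4-pass membrane protein of lipid-rich membrane that takes part in sorting proteins to myelin. It measured 9.89, 9.84, 9.77 and 9.89 in noodle-diet rats, against 9.60, 9.93, 10.04, 9.77 and 9.69 in control rats. Its noodle-diet rats lay close together, while control rats 2 and 14 fell below all of them.

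Mog, myelin oligodendrocyte glycoprotein, sits on the outermost surface. It measured 9.26, 9.05, 8.91 and 9.03 in noodle-diet rats, against 8.77, 9.28, 9.56, 8.98 and 8.88 in control rats. Mag, myelin-associated glycoprotein, faces the axon from the innermost turn. It measured 9.35, 9.24, 9.19 and 9.19 in noodle-diet rats, against 9.07, 9.45, 9.72, 9.12 and 9.06 in control rats. For both genes control rat 8 was highest, and control rats 2 and 14 were the lowest.

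Cnp encodes an enzyme of the cytoplasm-filled channels of myelin, a marker of the lineage. It measured 10.93, 10.80, 10.65 and 10.69 in noodle-diet rats, against 10.62, 10.91, 11.07, 10.63 and 10.52 in control rats (1387897_at). Its second probe set, 1370693_a_at, ran from 9.08 to 9.28 in noodle-diet rats and from 8.93 to 9.44 in control rats. Noodle-diet rat 1 and control rats 5 and 8 were again the 3 highest. Cldn11 encodes claudin 11, the tight junction protein between the turns of the sheath. It measured 11.30, 10.99, 10.86 and 11.01 in noodle-diet rats, against 10.86, 11.16, 11.35, 10.82 and 10.82 in control rats (1376711_at). Here noodle-diet rat 1 came within 0.05 of control rat 8. Its second probe set, 1369609_at, measured 7.80, 7.64, 7.46 and 7.68 in noodle-diet rats, against 7.15, 7.60, 7.88, 7.32 and 7.52 in control rats.

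Ugt8 encodes the enzyme that makes galactosylceramide, the main glycolipid of myelin. It had the widest range of the 9 leading probe sets, 1.02 log2 units (2.03-fold). It measured 8.35, 7.86, 7.86 and 7.90 in noodle-diet rats, against 7.64, 8.12, 8.66, 8.07 and 7.66 in control rats (1368858_at). Control rat 11 ranked among the lower rats for most members, but it ranked 6 here, counting up from the lowest. Sox10 measured 7.58, 7.31, 7.26 and 7.29 in noodle-diet rats, against 7.13, 7.51, 7.62, 7.17 and 7.30 in control rats. Control rat 14, low for the structural genes, lay near the middle for Sox10.

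**Figure D1:**
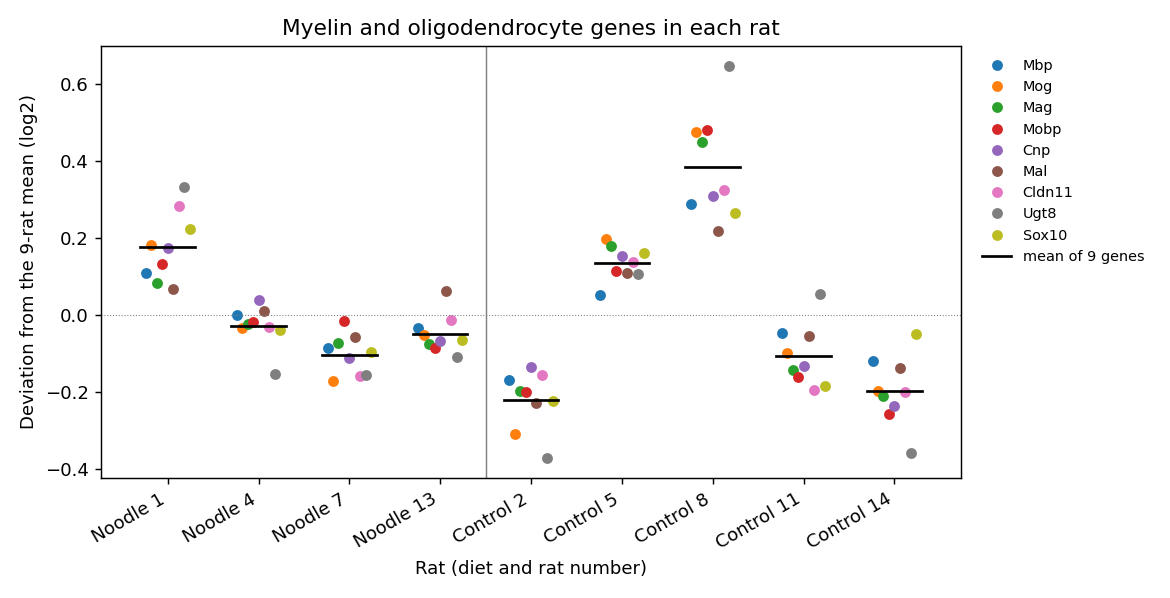
Each point is 1 gene (its brightest variable probe set) in 1 rat, as the deviation in log2 units from that gene's mean over the 9 rats, with noodle-diet rats on the left and control rats on the right; the bar is the mean of the 9 genes. The bar stands at 0.177 in noodle-diet rat 1, and at 0.385 in control rat 8 and -0.220 in control rat 2.

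In these ranks the agreement was nearly complete. Noodle-diet rat 1 and control rats 5 and 8 were the 3 highest for 9 of the 9 genes, taking the brightest variable probe set of each. Control rat 8 was the highest for all 9. Control rats 2 and 14 were each among the 3 lowest for 8 of the 9, and noodle-diet rat 7 for 6. Noodle-diet rats 4 and 13 were never among the 3 highest or the 3 lowest. Their mean deviation over the 9 genes, called the member score, was 0.177, -0.027, -0.102 and -0.048 in noodle-diet rats, against -0.220, 0.135, 0.385, -0.106 and -0.195 in control rats.

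Pearson's r over the 9 rats was taken for each of the 36 pairs of members, as a description with no test, since the points share arrays and tissue pieces. The median was 0.916, the lowest 0.824 (Ugt8 with Sox10) and the highest 0.985 (Mbp with Mog), and 21 of the 36 pairs lay above 0.9. Among all pairs of the 1223 variable probe sets the median r was 0.0721 and 1.86% lay above 0.9. Mag and Mobp formed the next closest pair (0.984), and Cnp with Cldn11 reached 0.960. Taken as deviations from each diet's own mean, the median over members was 0.928. Control rat 8 carries part of the agreement, and without it the median was 0.873 and 12 of the 36 pairs lay above 0.9. A first principal component of the 9 genes held 92.7% of their variance over rats.

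**Figure D2:**
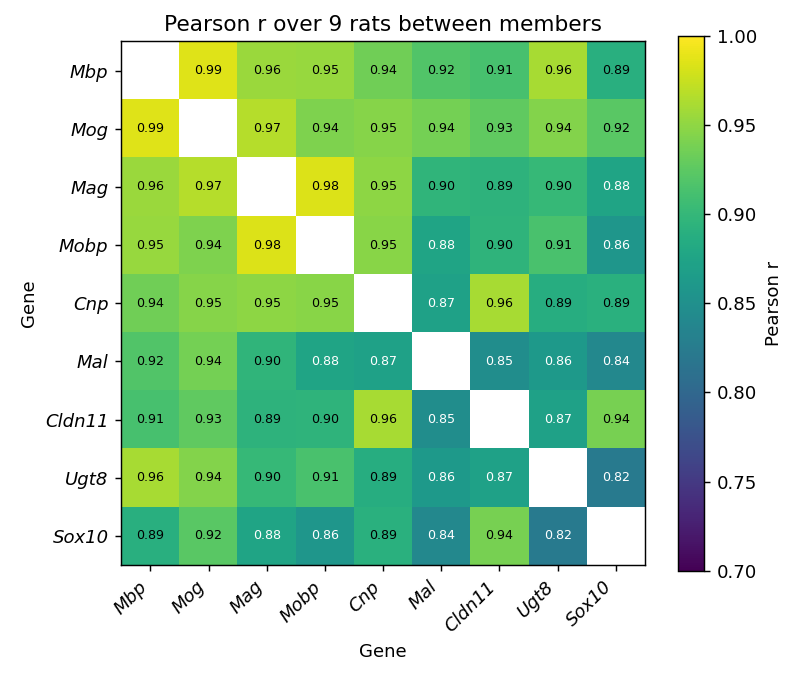
Pearson's r over the 9 rats between each pair of members (brightest variable probe set of each gene), with the colour scale starting at 0.7. Mbp, Mog, Mag, Mobp and Cnp agree closely among themselves, and the lowest values are those of Sox10 with Ugt8 (0.824) and with Mal (0.840).

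The same co-movement was measured against all probe sets by a limma fit of each on the level of Mog, with diet in the model. It uses the same values as the correlations above and members chosen with earlier results of these data known, so the positive slopes of the members are no independent support. A slope of 1 means a change of 1 log2 unit for each log2 unit of Mog. All 14 variable probe sets of the other 8 members had positive slopes, from 0.213 (Mbp, 1383479_at) to 1.31 (Mobp, 1368263_a_at), with a median of 0.796. The median was -2.04e-05 over all probe sets tested, most of which are compressed, and 0.152 over the 1222 variable ones. By limma with Benjamini-Hochberg adjustment, 5 of the 14 member probe sets passed, where 0.142% of the 31041 probe sets tested passed with a positive slope (44 probe sets). Of the 1222 variable probe sets in this fit 34 passed. Mbp passed in 2 probe sets, 1387341_a_at with a slope of 0.912 (SE 0.058, adjusted p = 0.00608) and 1368810_a_at with 0.556 (SE 0.035, adjusted p = 0.00608). Mag passed with 0.834 (SE 0.084, limma adjusted p = 0.0341), Mal with 0.526 (SE 0.057, adjusted p = 0.0430) and Mobp (1370500_a_at) with 0.942 (SE 0.11, adjusted p = 0.0446). The leading probe sets of Cnp, Cldn11, Ugt8 and Sox10 did not pass by limma, with slopes of 0.703, 0.785, 1.28 and 0.670 and adjusted p of 0.0588, 0.0910, 0.0780 and 0.124. Their 95% intervals were 0.497 to 0.909, 0.526 to 1.04, 0.869 to 1.69 and 0.426 to 0.915.

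The number that passed depends on which probe sets and rats are in the fit. Over the variable probe sets alone, a set chosen after the values had been seen, 13 of the 14 passed by limma (the exception was Mbp, 1383479_at, adjusted p = 0.189), where 8.27% of the 1222 tested passed with a positive slope. Without control rat 8 none of the 14, and none of all probe sets, passed by limma, while 14 of 14 slopes stayed positive, from 0.306 to 1.22. All 14 had an unadjusted p under 0.05 both with the 9 rats and without control rat 8. With the 9 rats 2529 of the 31041 probe sets, and 306 of the 1222 variable ones, had such a p by limma. The number without control rat 8 is not given here. Without each of the other 8 rats in turn 2 to 4 of the 14 passed, where at most 21 of all probe sets passed. Mbp 1368810_a_at and 1387341_a_at were among those members each time. After quantile normalization 7 of the 14 passed, where 0.132% of all probe sets passed with a positive slope, and the slope of Mbp 1368810_a_at was 0.110 and did not pass (limma adjusted p = 0.227).

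The members kept to the common course to different degrees. Each probe set was regressed on the mean deviation of the other 8 genes. The closest were Mog (r = 0.988, residual SD 0.041 log2), Mbp 1368810_a_at (0.983) and Mbp 1387341_a_at (0.981). The loosest were Mbp 1383479_at (0.741), Cldn11 1369609_at (0.818), Sox10 (0.908), Mal (0.912) and Ugt8 (0.929). These are descriptions over 9 rats, without a test.

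The single largest departure was that of Ugt8 in control rat 11, 0.266 log2 above the course of the other genes. Mobp 1368263_a_at stood 0.195 above it in control rat 2. Cldn11 1369609_at was 0.170 above it in noodle-diet rat 13, against 0.146 above it in control rat 14 and 0.191 and 0.155 below it in control rats 2 and 11. Sox10 stood 0.0884 above it in noodle-diet rat 1, and in control rats 0.121 above it in rat 14 and 0.106 below it in rat 11. Probe sets of 1 gene could part as well. The 3 Mobp probe sets had r from 0.941 to 0.979 among themselves and the 2 of Cnp had 0.978. The 2 of Cldn11 had r = 0.824, and Mbp 1383479_at had 0.655 and 0.708 with the other 2 of Mbp. The files do not say which transcripts the loosest probe sets report.

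Because the members move together, the promoter sequences of those given by RefSeq (build GRCr8, from 250 bases before to 50 after a listed start) were searched for 2 forms of the core letters that SOX family factors such as Sox10 bind, ACAAAG and ACAATG, on both strands. Of the 9 genes 7 matched by gene number, with 8 promoters, since Mbp has 2 listed starts. ACAAAG was found in 4 of the 8 (Mobp, Cnp, Mag and 1 start of Mbp) and ACAATG in 1 (the same start of Mbp), where 18.8% and 13.2% of all 33469 promoters hold them. The Mobp promoter held 8 copies of ACAAAG, all read on the opposite strand as CTTTGT, at positions from -242 to -120 relative to the start. Only 3 of the 33469 promoters (0.00896%) hold 8 or more. Mobp is shown for these copies, Cnp and Mag as members with 1 copy each, and Mal as a member with neither. Capitals mark the copies of ACAAAG on either strand, and each sequence is written 5′ to 3′ on its gene's strand. A match describes the letters and was not tested as a binding site.
Mobp (chr8:128746982-128747281, plus strand): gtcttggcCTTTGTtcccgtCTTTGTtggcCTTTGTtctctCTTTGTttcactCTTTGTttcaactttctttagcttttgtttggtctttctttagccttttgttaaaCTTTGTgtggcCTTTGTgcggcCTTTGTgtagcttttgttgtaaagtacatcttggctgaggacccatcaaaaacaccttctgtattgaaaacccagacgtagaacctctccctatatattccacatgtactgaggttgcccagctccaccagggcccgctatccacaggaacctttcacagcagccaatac
Cnp (chr10:86011254-86011553, plus strand): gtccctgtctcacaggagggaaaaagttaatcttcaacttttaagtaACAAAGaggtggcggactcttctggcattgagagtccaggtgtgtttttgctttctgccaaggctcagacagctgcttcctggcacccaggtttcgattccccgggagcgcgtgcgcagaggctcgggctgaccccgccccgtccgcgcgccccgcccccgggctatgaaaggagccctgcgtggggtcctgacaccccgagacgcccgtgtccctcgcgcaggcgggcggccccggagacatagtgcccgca
Mag (chr1:95290995-95291294, minus strand): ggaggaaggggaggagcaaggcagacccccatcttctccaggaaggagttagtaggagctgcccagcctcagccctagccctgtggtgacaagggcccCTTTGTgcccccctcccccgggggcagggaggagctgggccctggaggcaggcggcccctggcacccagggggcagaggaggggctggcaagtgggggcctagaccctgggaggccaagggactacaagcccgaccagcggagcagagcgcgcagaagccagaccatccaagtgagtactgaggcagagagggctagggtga
Mal (chr3:135341374-135341673, minus strand): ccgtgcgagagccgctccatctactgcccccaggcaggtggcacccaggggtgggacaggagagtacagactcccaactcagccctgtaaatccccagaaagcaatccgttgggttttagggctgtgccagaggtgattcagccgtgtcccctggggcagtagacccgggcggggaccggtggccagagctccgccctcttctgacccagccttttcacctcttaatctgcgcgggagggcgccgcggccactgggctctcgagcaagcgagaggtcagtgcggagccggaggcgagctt

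The other genes of the lineage moved with the members. Of 26 further genes of mature oligodendrocytes and myelin, 23 were named by a probe set and 18 of these were variable. Those 18 had r from 0.726 to 0.994 with the member score (median 0.924), and 17 of 18 were highest in control rat 8. Their own mean deviation correlated with the member score at r = 0.996, a description over 9 rats. Without control rat 8 no probe set at all passed the limma fit on Mog. With all 9 rats 7 of the 23 passed, where 0.142% of the 31041 probe sets tested passed with a positive slope. The 7 lie among the 18 variable genes of the list, where 34 of the 1222 variable probe sets tested passed. All 7 had positive slopes, with a median of 0.441 over the 23. Among them were Myrf, the transcription factor of myelin genes (slope 0.566, SE 0.030, limma adjusted p = 0.00608), and Evi2a (0.848, adjusted p = 0.00608). Enpp2, which makes lysophosphatidic acid (0.862, adjusted p = 0.0179), Pllp, a myelin membrane protein (0.451, adjusted p = 0.0321), and Ermn, a cytoskeletal protein of myelin (0.886, adjusted p = 0.0447), passed as well. The last of the 7 were Fa2h, which hydroxylates the fatty acids of myelin glycolipids, and Gjb1, a gap junction protein (a connexin) of oligodendrocytes. They had slopes of 0.982 and 0.308 with a limma adjusted p of 0.0465 for each.

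Opalin, Aspa, Gpr37, Tspan2, Bcas1, Hapln2, Olig1 and Pmp22 had positive slopes of 0.545, 0.561, 0.387, 0.371, 0.506, 0.780, 0.234 and 0.794 on Mog and did not pass by limma (adjusted p from 0.0654 to 0.307). Car2, Qdpr and Plekhb1 followed least, with r of 0.734, 0.726 and 0.746 with the member score. The probe sets of Olig2, Nkx6-2, Gal3st1, Omg and Cntn2 were compressed. Of 9 named genes of oligodendrocyte progenitors only Pdgfra, Vcan and Bmp4 were variable, and 0 of the 9 passed on Mog by limma, with 2 at an unadjusted p under 0.05. Pdgfra, the growth factor receptor of progenitors, had r of 0.801 with the member score, Bmp4 0.742 and Vcan 0.143. The mean deviation of these 3 genes had r = 0.676 with it. Their slopes on meningeal genes are given further below. The 5 named genes of a list for Schwann cells, which make peripheral myelin, were all compressed, so nothing could be read from them. Pmp22, counted here with the oligodendrocyte genes, is not among those 5.

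Outside the lists, 354 probe sets with 1 symbol ranged over more than 0.5 log2 units. The 6 genes most like the member score by r over the 9 rats were Cfap20dc (0.987), Dbndd2 (0.986), Apod (0.978), Ppp1r14a (0.970), Cryab (0.969) and Trak2 (0.963). Apod, apolipoprotein D, measured 11.08, 10.54, 10.53 and 10.57 in noodle-diet rats, against 10.34, 10.85, 11.22, 10.53 and 10.30 in control rats. It shared its 3 highest rats with the members, noodle-diet rat 1 and control rats 5 and 8. The 4 most opposed were Eid1 (-0.805), Pcdh17 (-0.796), Col25a1 (-0.729) and Rab27b (-0.697). Eid1 measured 9.75, 10.41, 9.68 and 10.32 in noodle-diet rats, against 10.26, 9.65, 8.37, 9.74 and 10.28 in control rats. Its values lay in steps, with none between 9.75 and 10.26 and control rat 8 alone far below. The cause of these steps was not tested.

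The members were next set against genes of the meninges, the connective tissue that covers the brain. The list of 17 holds collagens, matrix proteins, membrane transporters and secreted factors, and all 17 were named and variable. Their mean deviation, the meningeal score, was 0.605, -0.304, -0.443 and 0.088 in noodle-diet rats, against 0.343, 0.230, 0.477, -0.487 and -0.509 in control rats. Noodle-diet rat 1 and control rats 5 and 8 were high for meninges and for myelin alike, while control rat 2 was high for meninges and the lowest for the member score.

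**Figure D3:**
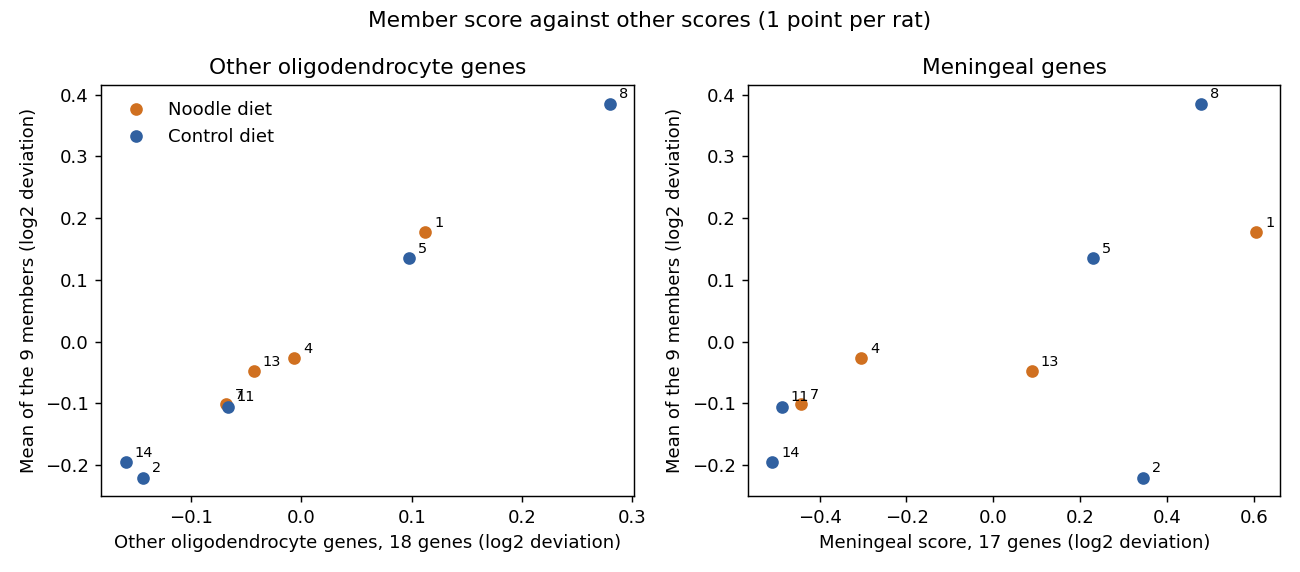
Member score (mean log2 deviation of the 9 genes) on the vertical axes against the mean log2 deviation of 18 other oligodendrocyte genes (left) and of 17 meningeal genes (right), with 1 point per rat, numbered. The left points lie along a line (r = 0.996), and on the right control rat 2 stands apart at 0.343 and -0.220 (r = 0.643 over the 9 rats).

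No member passed on the meningeal score in the fit of all probe sets. Independence from it was not shown either, since the intervals were wide and 5 of the 15 lay above 0. In a limma fit of every probe set on the meningeal score with diet in the model, all 15 variable member probe sets had positive slopes, from 0.0643 to 0.615 with a median of 0.295. By limma 0 of the 15 passed after adjustment, with 5 at an unadjusted p under 0.05, where 0.403% of the 31017 probe sets tested passed with a positive slope. An unadjusted p under 0.05 was found for 2720 of those 31017, and for 407 of the 1201 variable ones. It was thus common among variable probe sets and does not single out the members. The 5 member probe sets were Mobp 1368263_a_at (slope 0.615, 95% interval 0.191 to 1.04), Mobp 1370500_a_at (0.391, 0.0487 to 0.733), Cldn11 1376711_at (0.375, 0.129 to 0.620), Cnp 1387897_at (0.295, 0.0376 to 0.552) and Cnp 1370693_a_at (0.262, 0.0209 to 0.503). Mbp 1368810_a_at had a slope of 0.177 (95% interval -0.0572 to 0.410), Mog 0.325 (-0.0824 to 0.732), Mag 0.286 (-0.0620 to 0.634) and Mal 0.140 (-0.104 to 0.384). Sox10 had 0.248 (-0.0364 to 0.533) and Ugt8 0.429 (-0.129 to 0.987). Of the progenitor genes Bmp4 passed on the meningeal score by limma (slope 0.442, adjusted p = 0.0398). Pdgfra (0.232, limma adjusted p = 0.236) and Vcan (0.107, limma adjusted p = 0.960) did not.

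**Figure D4:**
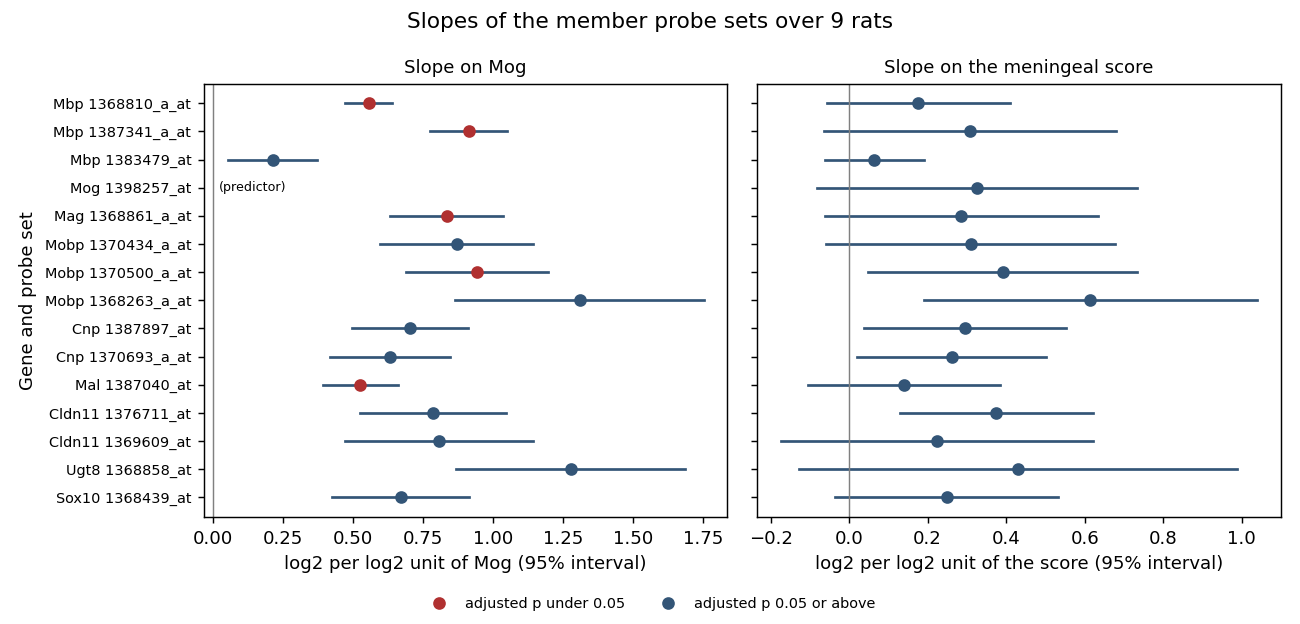
Slopes of the 15 variable member probe sets on the level of Mog (left, Mog itself left out) and on the meningeal score (right), from limma with diet in the model over 9 rats; bars are 95% intervals and red points have an adjusted p under 0.05. On the left 5 points are red and on the right none.

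For Mog alone the relation with the meningeal score had Pearson r = 0.589 (exact permutation p = 0.0941, 2-sided) and Spearman rho = 0.550 (exact permutation p = 0.133), over 9 rats and as the only relation tested in this way. Without control rats 11 and 14, the 2 farthest from the median score, r was 0.514, and as deviations from the diet means it was 0.589. Control rat 2 weighs heavily on this value. Without it r was 0.863, and without other single rats it lay between 0.469 and 0.598. Other settings changed calls on the meningeal score. Over the variable probe sets alone 2 of the 15 passed by limma, Cldn11 1376711_at (adjusted p = 0.0327) and Mobp 1368263_a_at (adjusted p = 0.0348), where 17.6% of those tested passed with a positive slope. After quantile normalization 5 of the 15 passed, the same 5 probe sets that had an unadjusted p under 0.05. In that setting 349 of the 31017 probe sets passed with a positive slope (1.13%), and most of the others with a negative slope. Passing as such was thus common there and does not single out the members. The slope of Mbp 1368810_a_at turned to -0.035 there (limma adjusted p = 0.426). With a common array median the same number, 5 of the 15, passed by limma, where nearly all probe sets tested passed in either direction. That count cannot be read as a result about the members either. Without control rat 2 the Cldn11 probe set 1376711_at passed on the meningeal score by limma (slope 0.451, SE 0.047, adjusted p = 0.0393). All the other variable member probe sets but Mbp 1383479_at (limma unadjusted p = 0.122) had an unadjusted p under 0.05 in that fit. How many of all probe sets had one there is not given here. The member score had r = 0.882 with the meningeal score there, against 0.643 with all 9 rats. In the fits without single rats 17 to 98 of all probe sets passed. Without the other rats, left out singly, 0 of the 15 passed by limma.

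The co-movement of the members remained when the meningeal score was taken out. As residuals from that score, the 36 pairs had a median r of 0.906, with the lowest at 0.728 (Ugt8 with Sox10) and 19 pairs above 0.9. With the score added to the limma fit on Mog, the slopes were 0.563 for Mbp 1368810_a_at, 0.810 for Mag and 0.577 for Mal, but 0 of the 14 passed by limma. The lowest adjusted p was 0.0765, shared by Mbp 1368810_a_at, Mbp 1387341_a_at and Cldn11 1376711_at, and 13 of the 14 had an unadjusted p under 0.05. Only 1 probe set of all those tested passed in that fit, and how many had an unadjusted p under 0.05 is not given here. In the fit on Mog without the score, 0 of the 17 meningeal genes passed by limma and 2 had an unadjusted p under 0.05, while 17 of 17 slopes were positive (median 1.05). Their r with the member score ran from 0.509 to 0.815. Igf2, a growth factor, had 0.627, Mgp, a matrix protein, 0.677, the collagen gene Col1a2 0.597 and Ogn, osteoglycin, 0.630.

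Other cell types moved with the member score to different degrees, given as r over 9 rats without a test. The astrocyte score, over 6 variable genes of 11 named, had r = 0.774 with it, and 0.932 without control rat 8. That score ran from -0.0802 to 0.130 in noodle-diet rats and from -0.127 to 0.151 in control rats. Gfap, the astrocyte filament, had r of 0.635 and S100b 0.215. The microglia score (5 variable genes of 11) had r = 0.302, the neuron score (6 of 13) -0.388 and the score of hypothalamic neuron genes (9 of 12) 0.129. Among neuron genes Gad1, which makes GABA, had r of -0.626, and the neurofilament genes Nefl and Nefh had -0.039 and 0.295. The choroid plexus and ependymal score rests on Ttr and Rarres2 alone (r = 0.549). The median of all probe sets on each array had r = 0.649 with the member score, over a span of 0.00791 log2 units. The part of these in the co-movement of the members was not tested, beyond the fit with the meningeal score.

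The diets were compared to ask whether seasonings change these transcripts, and the members gave no difference that passed. By limma 0 of the 15 variable member probe sets passed and 0 had an unadjusted p under 0.05, where 0% of the 31042 probe sets passed and 712 had an unadjusted p under 0.05. Of the 15, 8 differences were positive, with a median of 0.0081, and over all probe sets the median was -4.6e-06. The diets overlapped in all 16 member probe sets, where 0.567% of all probe sets did not overlap.

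Mbp averaged 13.10 ± 0.082 in noodle-diet rats, against 13.10 ± 0.18 in control rats (SD, 4 and 5 rats, as throughout), a difference of -0.0040 with a 95% interval of -0.220 to 0.212. Mag averaged 9.24 ± 0.073 in noodle-diet rats, against 9.28 ± 0.29 in control rats (-0.038, 95% interval -0.369 to 0.294). Cnp averaged 10.77 ± 0.13 in noodle-diet rats, against 10.75 ± 0.23 in control rats (0.017, -0.267 to 0.301). Of the 23 other oligodendrocyte genes 0 passed between diets by limma and 0 had an unadjusted p under 0.05. The largest difference among the 15 member probe sets was that of Cldn11 1369609_at, 7.65 ± 0.14 in noodle-diet rats, against 7.50 ± 0.28 in control rats (0.151, -0.189 to 0.492). The other Cldn11 probe set, 1376711_at, differed by 0.037 (-0.283 to 0.358).

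Mobp, Mal, Ugt8, Sox10 and Mog differed by 0.0081, 0.040, -0.037, 0.012 and -0.032 in their leading probe sets. The widest interval was that of Mobp 1368263_a_at, -0.543 to 0.529, and that of Ugt8 1368858_at was -0.557 to 0.483. Differences inside those bounds remain possible with these rats. The bounds are not limits of detection, since calls were adjusted over all probe sets and could miss larger differences. The intervals of Mbp 1383479_at (-0.137 to 0.0752) and of Mal (-0.170 to 0.250) were the narrowest of the 15. The compressed Ugt8 probe set differed by -0.00029 (unadjusted p = 0.0437 by limma, adjusted p = 1 after rounding), a size that cannot be read as a change of the transcript.

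**Figure D5:**
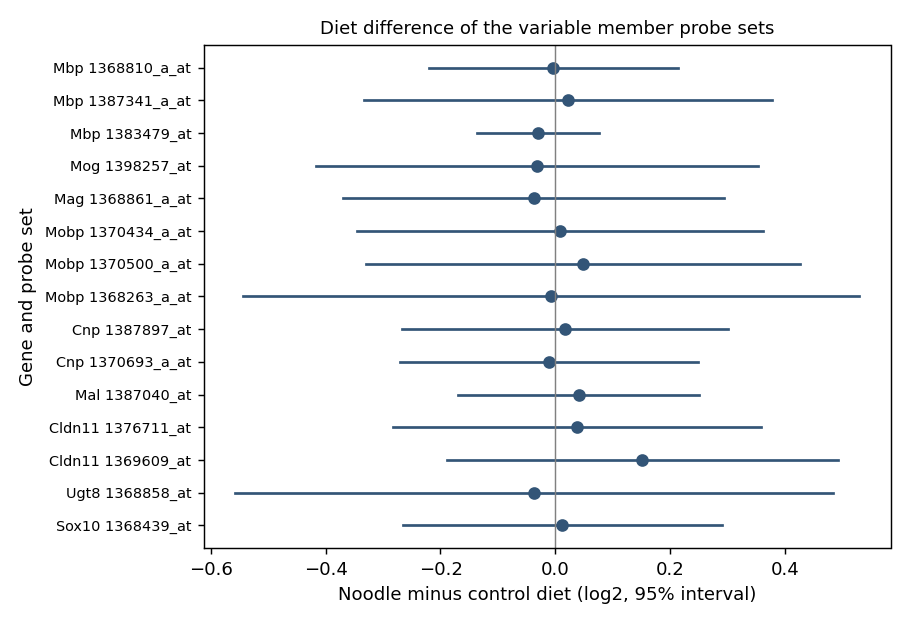
Difference between diets (noodle minus control, log2) of each of the 15 variable member probe sets, as limma's estimate with its 95% interval, from 4 noodle-diet and 5 control rats. Every interval includes 0.

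For these genes control rats were the more spread group. The SD on the control diet was above that on the noodle diet in 15 of the 15 variable member probe sets. For Mag it was 0.073 in noodle-diet rats, against 0.29 in control rats, and for the member score 0.122 in noodle-diet rats and 0.257 in control rats. Without control rat 8 the control SD was 0.184 for Mag and 0.162 for the member score, and it stayed above that of noodle-diet rats in 14 of the 15 (the exception was Cldn11 1376711_at). These probe sets move together and are not independent of each other, and the difference in spread was not tested. How often the control SD was the larger over all probe sets was not counted, so the count may not be particular to the members. Control rat 8 was the highest in 14 of the 15 probe sets, and control rats 2 and 14 were the lowest in 7 and 8.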

How the data were processed

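Hypothalamus RNA of 9 rats, 1 array each, was measured on an Affymetrix rat expression array from biotin-labelled cRNA (from 100 ng of total RNA, by the protocol labels). A single value table was deposited by the authors, and its values (5.13 to 13.7) were taken as log2 from their range. How probes were summarized and normalized is not stated in the labels or the table, and neither is why most probe sets hardly vary. Values were used as deposited, without the 57 manufacturer control probe sets. Groups and rat numbers come from the titles, and the seasonings from the series design. The labels number each rat separately, so the tests rest on variation among animals, and precision is limited by 9 arrays. None of the 36 pairs of arrays was identical.

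Names come from the platform annotation (20826 probe sets with 1 symbol, 436 with several, 9780 unnamed here); 20758 were found in the RefSeq gene table of GRCr8. A gene is represented by its variable probe set of highest mean. Fits used limma 3.58.1 (R 4.3.3), with a trended prior in eBayes. P-values are 2-sided, adjusted by Benjamini-Hochberg across every probe set in the fit, and called under 0.05. The fits were tested on simulated data. The fit on Mog left out Mog, and the fit on the meningeal score left out its 17 genes. Python 3.11.15 was used for the rest.

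The members and lists were chosen with earlier results of these data known. Named genes are the members, the variable genes of the mature oligodendrocyte list, up to 4 variable genes of highest mean of each other list, and the 6 most and 4 least alike genes outside the lists; the compressed list genes that are named were added after their values were seen. Alternatives covered normalization, filters, variance models, predictors and single rats.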

Additional observations from a re-analysis of the deposited data

Results flagged for a closer look

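The highest and lowest rat of each diet were set against the rest of that diet for the 16 member probe sets and 3 scores (members, other oligodendrocyte genes, meningeal genes). Of 38 such groups 2 held a rat that stood apart, and 1.9 would do so by chance. Both lie in noodle-diet rat 1. Mobp 1370500_a_at stood at 11.11 there, with the other 3 noodle-diet rats at 10.74 to 10.75. Ugt8 1368858_at stood at 8.35 there, with the other 3 at 7.86 to 7.90.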

How the results depend on the processing

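No paired analysis was possible because the diets share no rat numbers in the labels, and the labels do not say which rats were fed as pairs. With 9 rats, small differences between diets were not detectable. No probe set passed between diets under any alternative or with any rat left out. Without single rats the difference between diets ran from -0.047 to 0.068 for Mbp, -0.113 to 0.083 for Mog, -0.094 to 0.071 for Mag, -0.055 to 0.129 for Mobp, -0.040 to 0.097 for Cnp, -0.012 to 0.099 for Mal, -0.050 to 0.123 for Cldn11, -0.155 to 0.121 for Ugt8 and -0.061 to 0.080 for Sox10, so no direction between diets was stable. The Mbp difference was also 0.032 with quantile normalization, 0.0072 with array weights and 0.00031 with the meningeal score as covariate, and the cause was not tested.

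On Mog 46 probe sets passed in either direction, 13 with a robust variance model, 24 with Mag in place of Mog, 72 without diet in the model, 1 with the meningeal score as covariate and 103 over variable probe sets alone (these last 2 chosen after seeing the data), and 0 to 21 without single rats. Of the 14 member probe sets 5 passed, with 9 under a common array median, 2 with a robust variance model, 2 with Mag in place of Mog (out of those of the other genes), 10 without diet, 0 with the meningeal score and 13 over variable probe sets alone, and 0 to 4 without single rats. In each of these settings, the common array median among them, at most 103 of all probe sets passed.

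On the meningeal score 130 passed, with 26958 after quantile normalization and 30185 with a common array median, and the cause was not tested. It was 78 among probe sets at or above the median mean, 62 with a robust variance model, 0 without the 2 rats farthest from the median score, 222 over variable probe sets alone and 17 to 98 without single rats. Of the 15 member probe sets 0 passed, with 5 after quantile normalization, 5 with a common array median, 2 over variable probe sets alone and 0 to 1 without single rats. The meningeal slope of Mbp turned to -0.035 after quantile normalization. The median r between members stayed between 0.873 and 0.942 without single rats.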
